A study of Danio rerio with 33 samples.

Results

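Zebrafish embryos exposed to the extract of harbour filter 36 were compared with embryos given the vehicle alone, in the second of the 2 sequencing rounds of the study. The members were fixed by the labels and by the round that the quality table records: harbour filter 36 replicates 2, 3 and 4 and vehicle replicates 4, 5 and 6, which makes 6 of the 33 libraries of the series and 6 of the 18 of the second round. Each library holds the RNA of a pool of 10 whole wild-type embryos. Exposure lasted 24 h, from 96 to 120 hours after fertilisation. The filter had collected airborne particles at a harbour in Barcelona in the cold season. Its organic compounds were taken up in dichloromethane and methanol and kept in methanol, and vehicle pools received no extract. The titles carry the numbers 7, 8 and 10 after the filter number for replicates 2, 3 and 4, and the number 11 for vehicle 4, 5 and 6. What these numbers stand for is not stated, and that the 3 exposed pools received the same dose is assumed. The labels call the pools biological replicates without saying whether they came from separate clutches, and p-values measure the spread between pools.

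Combustion particles carry polycyclic aromatic hydrocarbons, which bind the aryl hydrocarbon receptor (AhR). In fish the ligand-bound receptor, mainly Ahr2, pairs with Arnt and switches on cytochrome P450 genes of family 1, whose enzymes oxidise these compounds, along with repressors that close the loop. Particles also carry metals: ferritin shells store iron, and metallothionein binds zinc, copper and cadmium. The embryos received an extract of organic compounds and not the particles, and whether it held metals was not tested. The Hsp70 chaperones are produced when proteins misfold. The comparison asks which of these systems, and which other genes, differed in embryos given the harbour extract.

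The 3 vehicle libraries held 20206672, 27834671 and 30548926 counts, and the 3 exposed libraries held 26727365, 23815527 and 19454977. Uniquely mapped reads ran from 78.74 to 79.13% in the 6. Markers of liver (fabp10a, 208 to 255 CPM, the counts divided by library size and scaled alike for all libraries), intestine (fabp2, 531 to 715 CPM), heart (myl7, 25.3 to 35.3 CPM), neurons (elavl3, 478 to 662 CPM) and leukocytes (lyz, 22.7 to 34.2 CPM) were present in every library, as befits whole embryos. Exposed replicate 4 stood apart. It comes from library series 38 and the other 5 from series 37. Series here means the leading digits of the library name, and what these digits stand for is not stated. The mean insert size of exposed replicate 4 was 227.5 bases against 259.5 to 286.5. Its log2 CPM correlated at 0.979 to 0.98 with the other 5, which correlated at 0.984 to 0.988 among themselves. On the second principal component of the 18 libraries it lay at 50.12, where the other 17 lay between -14.18 and 12.32. Among those 17 are the 3 libraries of subway filter 80, also of series 38. They lay at 6.468, -7.452 and 7.281, with insert sizes of 276, 266.5 and 255.5 bases. Results that rest on exposed replicate 4 are given with and without it.

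**Figure D1:**
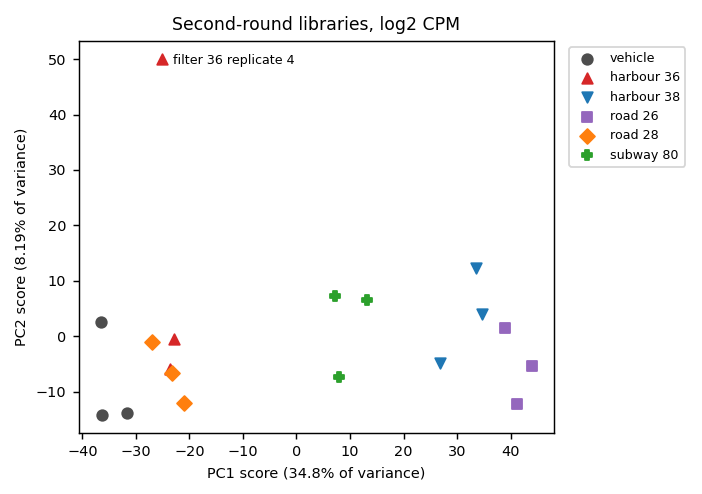
Principal components of log2 CPM over the 18 second-round libraries, the first component on the x axis and the second on the y axis, 1 point per library. Harbour filter 36 (red triangles) and road filter 28 lie next to vehicle on the first component, with subway filter 80, harbour filter 38 and road filter 26 further along it. Exposed replicate 4 lies alone at 50.12 on the second component.

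Few genes passed the adjusted threshold in edgeR between the pools given filter 36 extract and the vehicle pools. Of 21856 genes tested, 57 rose (0.261%) and 28 fell (0.128%) at an adjusted p under 0.05 in edgeR's quasi-likelihood test, and the median log2 fold change of all genes was 0.0049. At an unadjusted p under 0.05, 2319 genes (10.6%) differed in either direction. The genes that rose included 4 AhR-driven genes, 6 genes of iron storage and metal binding, a pair of jacalin-like lectins and hsp70.3. Those that fell included the early response genes fosb, egr4 and klf2b, the regulator cebpb, the secreted liver proteins c3a.2 and a2ml, and the calcium hormone gene stc1l. The exposed pools lay wholly above vehicle for 56 of the 57 risen genes and wholly below for all 28 fallen ones. Over all genes tested, 5.56% lay wholly above and 6.42% wholly below. Many calls were lost when 1 library was left out, and such a fit also has fewer pools to test with. Of the 85 genes, 18 passed in each of the 6 fits that leave out 1 library, 16 risen and 2 fallen. Without exposed replicate 4, 54 genes passed (42 risen, 12 fallen), without vehicle 5, 26 passed (21 and 5), and without vehicle 6, 38 passed (32 and 6). Because whole embryos were sequenced, fewer cells of a type and less RNA per cell cannot be told apart in any of these values.

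Among the AhR targets, 4 of 12 measured members rose, none fell and 8 did not pass, with a median log2 fold change of 0.36. The gene of the AhR repressor, ahrra, which competes with the receptor for its partner, gave the largest fold. It stood at 0.0989, 0.178 and 0.0337 CPM in vehicle 4, 5 and 6, which are 2, 5 and 1 reads, and at 0.921, 1.03 and 0.928 CPM in the exposed pools, from 25, 24 and 18 reads. The groups did not overlap, and the log2 fold change was 3.17 ± 0.47 (SE, n = 3 and 3, edgeR adjusted p = 0.00249). With so few reads in vehicle the size of this fold is imprecise.

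The P450 enzymes moved less. The transcript of cyp1b1 lay at 3.71, 4.05 and 3.71 CPM in vehicle and at 7.89, 5.49 and 6.34 CPM in the exposed pools, with every exposed pool higher (log2 fold change 0.78 ± 0.14 SE, edgeR adjusted p = 0.01). For cyp1c1 vehicle held 13.3, 15.2 and 15.3 CPM and the exposed pools 24.5, 21.4 and 17.5 CPM, again without overlap (0.54 ± 0.10, edgeR adjusted p = 0.0195). The classical marker of AhR activity, cyp1a, had 30.5, 30.4 and 40.1 CPM in vehicle and 58, 59.9 and 39.3 CPM in the exposed pools. Exposed replicate 4 lay below vehicle 6, so the groups overlapped, and the call was among the weaker ones (0.64 ± 0.13, edgeR adjusted p = 0.0355). It was lost without exposed replicate 2 or 3 (edgeR adjusted p = 0.128 and 0.0929) and without vehicle 4 or 5 (0.133 and 0.221). The call of cyp1b1 was lost without exposed replicate 2 or vehicle 6 (0.0634 and 0.0612), and that of cyp1c1 without exposed replicate 2 or any 1 vehicle pool (0.0582 to 0.0991). In a fit of the 6 compared libraries alone, cyp1a, cyp1b1 and cyp1c1 each lost the call. Without vehicle 5 the list held 2 risen members instead of 4, and without exposed replicate 4 it held 4.

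The remaining AhR targets gave no call. The paralog cyp1c2 lay at 3.1 to 3.41 CPM in vehicle and 4.5 to 5.36 CPM in the exposed pools, with no overlap but an edgeR adjusted p of 0.0747 for a log2 difference of 0.56. The second repressor ahrrb (1.03), the phase II gene nqo1 (0.19) and sult6b1 (0.13) were higher on average, and tiparp (-0.01), cyp1d1 (-0.12), foxq1a (-0.41) and ptgs2a (-0.79) lower, none past the threshold. The receptor itself, ahr2, stood at 141, 144 and 135 CPM in vehicle and 174, 168 and 169 CPM in the exposed pools. These groups did not overlap, and the log2 difference of 0.29 ± 0.06 SE just missed the threshold (edgeR adjusted p = 0.0522). None of the 7 receptors and partners passed in edgeR, 1 did at an unadjusted p under 0.05, and DESeq2 passed 1 of them, ahr2. The partners arnt (0.01) and arnt2 (-0.01), the chaperones aip (-0.08) and hsp90ab1 (0.03), and the other receptors ahr1a (0.43) and ahr1b (-0.11) had the log2 differences in brackets.

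**Figure D2:**
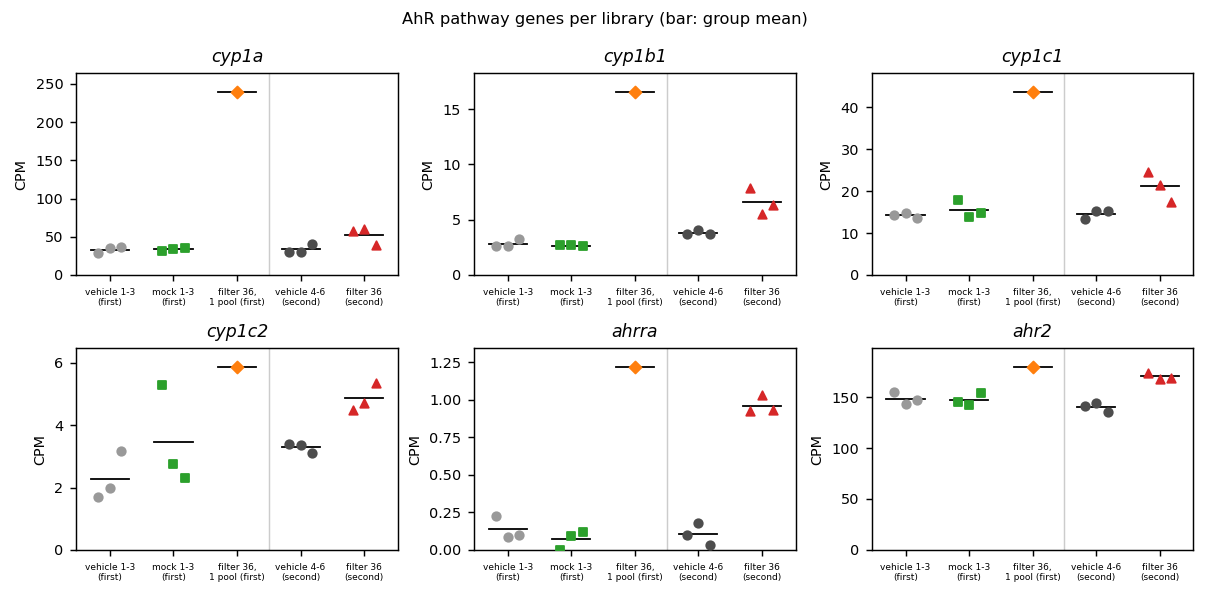
CPM per library of 5 AhR target genes and the receptor gene ahr2, each panel with a y axis from 0 and 1 point per library, with bars at group means; first-round libraries (vehicle 1 to 3, mock filter 1 to 3 and the single pool of filter 36) stand left of the grey line and second-round libraries right of it. The 3 exposed pools of the second round lie above vehicle 4 to 6 in every panel but cyp1a, where 1 pool overlaps, and the first-round pool reaches 240 CPM of cyp1a against 39.3 to 59.9 in the second round.

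Iron storage and metal binding gave the firmest calls of the comparison. In the list of metal and iron genes 6 of 19 measured members rose, 0 fell and 13 did not pass, with a median of 0.13 over the list. Of these, 5 are ferritin heavy chain-like genes. For fthl29 vehicle 4, 5 and 6 held 4.8, 6.43 and 7.56 CPM and the exposed pools 41.8, 61.9 and 47.4 CPM, a log2 fold change of 2.99 ± 0.16 (SE, edgeR adjusted p = 6.63e-10). For fthl28 the values were 16.9, 18.7 and 18.9 CPM against 77.3, 115 and 97.1 CPM (2.40 ± 0.14, edgeR adjusted p = 1.9e-09). The lowest exposed pool exceeded the highest vehicle pool by a wide margin for both. The related fthl31 went from 13.3 to 16.3 CPM in vehicle to 38 to 48.1 CPM (1.44 ± 0.12, edgeR adjusted p = 1.33e-06), fthl30 from 2.98 to 5.16 CPM to 7.73 to 10.5 CPM (1.12 ± 0.19, 0.00866), and fthl27 from 147 to 181 CPM to 208 to 254 CPM (0.53 ± 0.08, 0.00502). These genes resemble each other closely, and it is not stated how reads shared between them were counted, which leaves their single values uncertain.

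The metallothionein gene mt2 stood at 43.4, 53.1 and 56.7 CPM in vehicle and at 118, 142 and 88.5 CPM in the exposed pools, with replicate 4 lowest of the exposed but still above every vehicle pool (log2 fold change 1.19 ± 0.15 SE, edgeR adjusted p = 0.000516). The calls of fthl29, fthl28, fthl31 and mt2 held in every left-out-library fit, while fthl30 lost its call without exposed replicate 2 or vehicle 5 (edgeR adjusted p = 0.0507 and 0.0597), and without vehicle 5 the list held 4 risen members, fthl27, named after its value was seen, being the other to drop out. Other members did not pass: hmox1a, which breaks down heme and frees its iron, was 0.92 higher on the log2 scale (edgeR adjusted p = 0.164), the zinc exporter slc30a1a 0.32 higher (0.189), and the iron exporter slc40a1 (0.00), the transferrin receptors tfr1a (-0.07) and tfr1b (-0.09) and the iron hormone hamp (0.12) were close to 0. The second round has no mock filter library, so filter material and harbour air cannot be told apart for these genes within it. In the first round the 3 pools labelled mock filter held 59.5, 73.3 and 87.3 CPM of fthl29 against 50.6, 11.4 and 17.3 CPM in vehicle 1 to 3, a log2 difference of 1.48 that did not pass (edgeR adjusted p = 0.797). For fthl28 mock filter held 123, 115 and 112 CPM against 54, 16.8 and 32.8 CPM (1.76, edgeR adjusted p = 0.797), with no overlap. The first-round pool of filter 36 lay just under the lowest mock pool for fthl29 and had 68.4 CPM of fthl28.

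**Figure D3:**
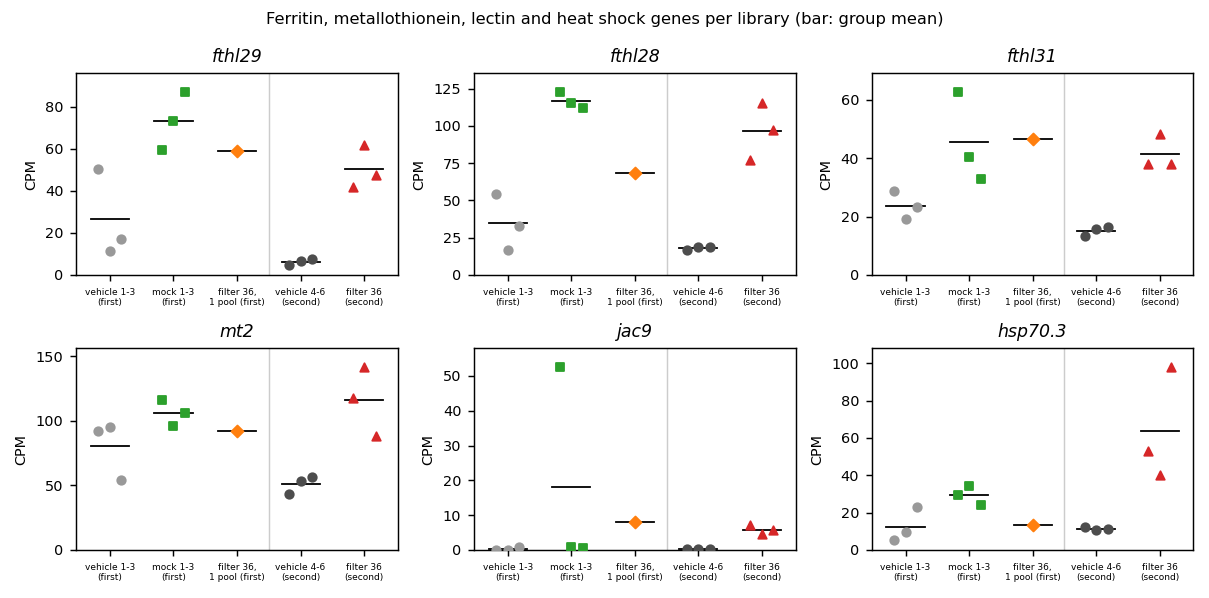
CPM per library of 3 ferritin-like genes, mt2, the lectin gene jac9 and hsp70.3, each panel with a y axis from 0 and 1 point per library, with bars at group means and first-round libraries left of the grey line. In the second round the 3 exposed pools lie above vehicle 4 to 6 in every panel; in the first round the 3 mock filter pools lie above the 3 vehicle pools for fthl29, fthl28, fthl31, mt2 and hsp70.3.

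Jacalin-like lectins, proteins with a sugar-binding fold, had the highest list median, 1.91 over 6 measured members, of which 2 rose. The transcript of jac9 was scarce in vehicle (0.247, 0.213 and 0.135 CPM) and reached 7.11, 4.46 and 5.82 CPM in the exposed pools, a log2 fold change of 4.89 ± 0.66 (SE, edgeR adjusted p = 0.000793). Its call was lost with all 33 libraries and the round as covariate (edgeR adjusted p = 0.616). For jac1 vehicle held 0.32 to 0.776 CPM and the exposed pools 1.49 to 2.62 CPM (1.90 ± 0.31, edgeR adjusted p = 0.00629), a call lost without vehicle 5 (0.0574). A further member, jac8, gave 1.92 ± 0.45 and missed the threshold (0.0692). In the first round 1 of the 3 mock filter pools had 52.7 CPM of jac9 the other 2 had 0.69 and 0.445 CPM, and the pool of filter 36 had 8.11 CPM.

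Of 26 chaperone genes 1 rose and 1 fell. The inducible hsp70.3 held 12.3, 10.5 and 11 CPM in vehicle and 52.8, 40.1 and 98.3 CPM in the exposed pools, replicate 4 being the highest (log2 fold change 2.5 ± 0.50 SE, edgeR adjusted p = 0.0262). Without replicate 4 it gave 2.05 and lost the call (0.133), as it did without any 1 vehicle pool (0.0737 to 0.139). Its paralogs hsp70l (vehicle 7.37 to 10.4 CPM, exposed 47.6 to 51.8 CPM), hsp70.1 (2.87 to 4.18 against 20.6 to 36.6 CPM) and hsp70.2 (11.4 to 15.3 against 28 to 67.8 CPM) also lay wholly above vehicle without passing, at edgeR adjusted p of 0.212, 0.164 and 0.256. Their SEs were 0.73, 0.85 and 0.63, in a fit that takes 1 spread per gene from all 6 groups of the round. The Hsp70 genes resemble each other closely, and their single values are uncertain in the way of the ferritins. The collagen chaperone serpinh1b fell by 0.63 on the log2 scale (edgeR adjusted p = 0.0195), from 44.8 to 50 CPM to 29.8 to 32.3 CPM, and lost its call in each of the 6 left-out-library fits (0.0507 to 0.0966). With all 33 libraries and the round as covariate its difference was 0.20 in the opposite direction.

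Further genes that rose with the largest folds were fbxo32, the muscle ubiquitin ligase atrogin-1 of mammals, calcoco1b, related to an autophagy receptor of mammals, and KLHL38. For fbxo32 vehicle held 59.4, 25.4 and 49.1 CPM and the exposed pools 87.7, 87.2 and 108 CPM (log2 fold change 1.08 ± 0.22 SE, edgeR adjusted p = 0.033). For calcoco1b the values were 22.1, 20.4 and 21.1 CPM against 41.9, 32.3 and 50 CPM (0.97 ± 0.16, 0.00629). KLHL38 rose by 0.97 ± 0.19 (0.0233), also without overlap. Vehicle 5 was the lowest library for fbxo32 and KLHL38, and without it neither passed (edgeR adjusted p = 0.134 and 0.123); without exposed replicate 4 fbxo32 and KLHL38 did not pass (0.133 and 0.0837), and calcoco1b lost its call without vehicle 5 (0.0532). The calls of fbxo32 and KLHL38 were also lost without exposed replicate 2 (0.0592 and 0.0639) or vehicle 6 (0.0884 and 0.0582). Chosen after their values were seen, trim63a, another muscle ubiquitin ligase (88.2 ± 16.5 CPM to 151 ± 9.99, mean ± SD, n = 3 each; log2 fold change 0.77), nfe2l1a, a regulator of proteasome genes (0.60), and sqstm1, the autophagy receptor p62, also rose. The values of sqstm1 were 61.2, 52 and 64 CPM in vehicle and 91.3, 91.1 and 112 CPM in the exposed pools (0.73 ± 0.09 SE, edgeR adjusted p = 0.000371). None of the 30 proteasome genes passed in edgeR or DESeq2, and the list median was 0.07. At an unadjusted p under 0.05, 3 were higher, near the share of all genes in either direction (10.6%).

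Among the remaining risen genes were klf9, a target of the glucocorticoid receptor (83.8, 88.2 and 98.4 CPM against 109, 124 and 165 CPM; log2 fold change 0.55 ± 0.12 SE, edgeR adjusted p = 0.0456), rhcgl1, of the ammonia transporter family (0.84, 0.0308), and the synaptotagmin gene SYT15 (0.95, 0.0313). Without exposed replicate 4 klf9 gave 0.37 and did not pass (0.21), and rhcgl1 and SYT15 did not pass either (0.141 and 0.0857). The call of SYT15 was lost without any 1 library (0.0545 to 0.14), that of klf9 without any 1 vehicle pool (0.0691 to 0.205), and that of rhcgl1 also without exposed replicate 2 (0.0507), vehicle 4 (0.0582) or vehicle 5 (0.2). With mt2, klf9 made 2 risen genes of 22 in the list of the stress axis and glucocorticoid targets; fkbp5, another such target, was 0.58 higher with overlapping groups and an edgeR adjusted p of 0.167.

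The fallen genes included early response genes, which are switched on within minutes of a stimulus. In that list 3 of 27 fell, none rose and 24 did not pass, with a median of -0.42, and 18 members were lower and 0 higher at an unadjusted p under 0.05, against 10.6% of all genes in either direction. The AP-1 subunit fosb stood at 5.04, 8.74 and 7.59 CPM in vehicle and 2.14, 3 and 3.5 CPM in the exposed pools (log2 fold change -1.33 ± 0.22 SE, edgeR adjusted p = 0.00714). The early growth response gene egr4 fell from 12.7, 19.1 and 18.5 CPM to 8.99, 10.4 and 8.81 CPM (-0.84 ± 0.16, 0.0204), and the Krüppel-like factor klf2b from 30 to 33.8 CPM to 22.3 to 24.6 CPM (-0.46 ± 0.08, 0.00933). Outside the list jdp2b, which dimerises with AP-1 proteins, gave -1.43 ± 0.25 (0.00933) and the nuclear receptor nr4a1 -0.80 ± 0.17 (0.0409). Vehicle 4 was the lowest vehicle pool for fosb, egr4, jdp2b and nr4a1, the nearest to the exposed pools, and the list's mean level in it was 0.35 log2 units below the vehicle mean, about where exposed replicates 3 (-0.35) and 4 (-0.29) lay. Without vehicle 5 none of the 3 listed genes passed (edgeR adjusted p = 0.0574 for fosb, 0.139 for egr4 and 0.071 for klf2b), and neither did jdp2b (0.0597) or nr4a1 (0.117). Without exposed replicate 2, fosb (0.0507), egr4 (0.0827), jdp2b (0.0592) and nr4a1 (0.148) did not pass, without vehicle 6 egr4 (0.122), jdp2b (0.0636) and nr4a1 (0.219) did not, and without exposed replicate 4 egr4 (0.0868) and nr4a1 (0.0979) did not.

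Other fallen genes code for secreted proteins of the liver or their regulators. The complement gene c3a.2 fell from 53.9, 51.6 and 47.7 CPM to 24.8, 32.7 and 20.3 CPM (log2 fold change -0.97 ± 0.20 SE, edgeR adjusted p = 0.0328), and a2ml, an alpha-2-macroglobulin-like protease inhibitor, from 249, 267 and 252 CPM to 197, 211 and 173 CPM (-0.40 ± 0.08, 0.0195). They were 2 fallen of 20 genes of complement and the acute phase, a list with no risen member and a median of -0.13. The apolipoprotein B gene apobb.2 gave -1.02 ± 0.21 (0.0294) and nr0b2a, the bile acid-induced corepressor, -1.13 ± 0.23 (0.0308). The regulator cebpb, which drives acute-phase genes, fell from 39.9, 64.3 and 74.4 CPM to 26.8, 33.5 and 27.6 CPM (-1.03 ± 0.18, 0.00919) as the only called gene of 26 in the inflammation list. Without exposed replicate 4, where c3a.2, a2ml and apobb.2 were lowest, these 3 did not pass (0.159, 0.0804 and 0.135), nor did nr0b2a (0.138), and without vehicle 5 cebpb (0.0574), c3a.2 (0.131), a2ml (0.131) and apobb.2 (0.207) did not. Without vehicle 6 none of the 5 genes passed (0.0597 to 0.22). Without exposed replicate 2 the calls of cebpb (0.0516), c3a.2 (0.109), a2ml (0.0507) and nr0b2a (0.108) were lost, that of apobb.2 was lost without exposed replicate 3 (0.0705), and that of c3a.2 without vehicle 4 (0.09). The 15 liver markers gave no call in edgeR or DESeq2, with 2 higher and 2 lower at an unadjusted p under 0.05 and a median of -0.14.

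The stanniocalcin gene stc1l, of a hormone of calcium balance in fish, had the firmest call among the fallen genes. It stood at 6.08, 6.32 and 7.19 CPM in vehicle and 1.44, 1.97 and 2.01 CPM in the exposed pools (log2 fold change -1.86 ± 0.26 SE, edgeR adjusted p = 0.00135), and it passed without any 1 library. With all 33 libraries and the round as covariate stc1l lost its call (edgeR adjusted p = 0.73). In the first round the mock filter pools held 0.0405, 2.21 and 2.39 CPM against 5.54, 7.23 and 4.75 CPM in vehicle, with no overlap (-1.92, edgeR adjusted p = 0.797), and the pool of filter 36 held 1.06 CPM. The magnesium transporter gene slc41a2a (-1.11 ± 0.23, 0.033), the transporter gene abcg2b (-0.96 ± 0.17, 0.01) and ankrd9 (-0.65 ± 0.13, 0.0252) also fell, each without overlap, and each lost its call without vehicle 5 (0.134, 0.0597 and 0.134) and without exposed replicate 4 (0.0553, 0.0553 and 0.112). Without vehicle 6 slc41a2a (0.165) and ankrd9 (0.156) did not pass, without exposed replicate 2 slc41a2a (0.0985) and abcg2b (0.0507) did not, and without exposed replicate 3 slc41a2a did not (0.0853). Chosen after their values were seen, 2 odorant receptor genes at very low levels fell as well, or71al2 from 0.84 to 1.42 CPM to 0.0858 to 0.147 CPM and or92a7 from 0.54 to 0.742 CPM to 0 to 0.172 CPM.

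Organ markers gave no call in edgeR. Over the 12 lists of organ and cell markers together, 0 of 252 measured genes passed, 20 were higher and 23 lower at an unadjusted p under 0.05 (10.6% of all genes in either direction), and DESeq2 passed 3 in each direction. The digestive enzymes of the exocrine pancreas leaned up, with 24 of 25 positive and a median of 0.31 against 0.0049 over all genes, yet the libraries disagreed: relative to vehicle their mean log2 level was 0.49 and 0.58 in exposed replicates 2 and 3 and -0.14 in replicate 4. Trypsin (prss1) showed this with 1180, 1120 and 609 CPM, against 656 to 964 CPM in vehicle. The mean log2 level of the list ran from -0.21 to 0.31 in the vehicle pools themselves. Without replicate 4, 5 of the 25 passed as higher and 22 were higher at an unadjusted p under 0.05, so replicate 4 decides this list. Ribosomal protein genes were likewise 0.39 log2 units below the vehicle mean in replicate 4. In the other 2 they were 0.04 and 0.10 above it, inside the range of the vehicle pools (-0.11 to 0.20). In that list 0 of 36 passed in edgeR or DESeq2 or had an unadjusted p under 0.05. All 36 cell cycle genes had a negative difference, from -0.48 to -0.01, with a median of -0.17, where 51.1% of all genes were positive. Relative to vehicle their mean log2 level was -0.273, -0.046 and -0.248 in exposed replicates 2, 3 and 4. The vehicle pools ran from -0.055 to 0.051, so replicate 3 lay within their range. None of the cell cycle genes passed in edgeR or DESeq2, and 4 were lower at an unadjusted p under 0.05. In the extracellular matrix list 0 of 29 genes passed in edgeR, and DESeq2 passed 1 as higher and 2 as lower. At an unadjusted p under 0.05, 1 was higher and 11 were lower. In that list 11 genes lay wholly below vehicle, against 6.42% of all genes. A further 9 lists were put together because they held no call, so their 0 calls in edgeR and DESeq2 are no result. They cover antioxidant and phase II enzymes, other P450 families, the unfolded protein response, interferon, p53, hypoxia, ribosome and proteasome. Of their 204 genes 14 were higher and 9 lower at an unadjusted p under 0.05.

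**Figure D4:**
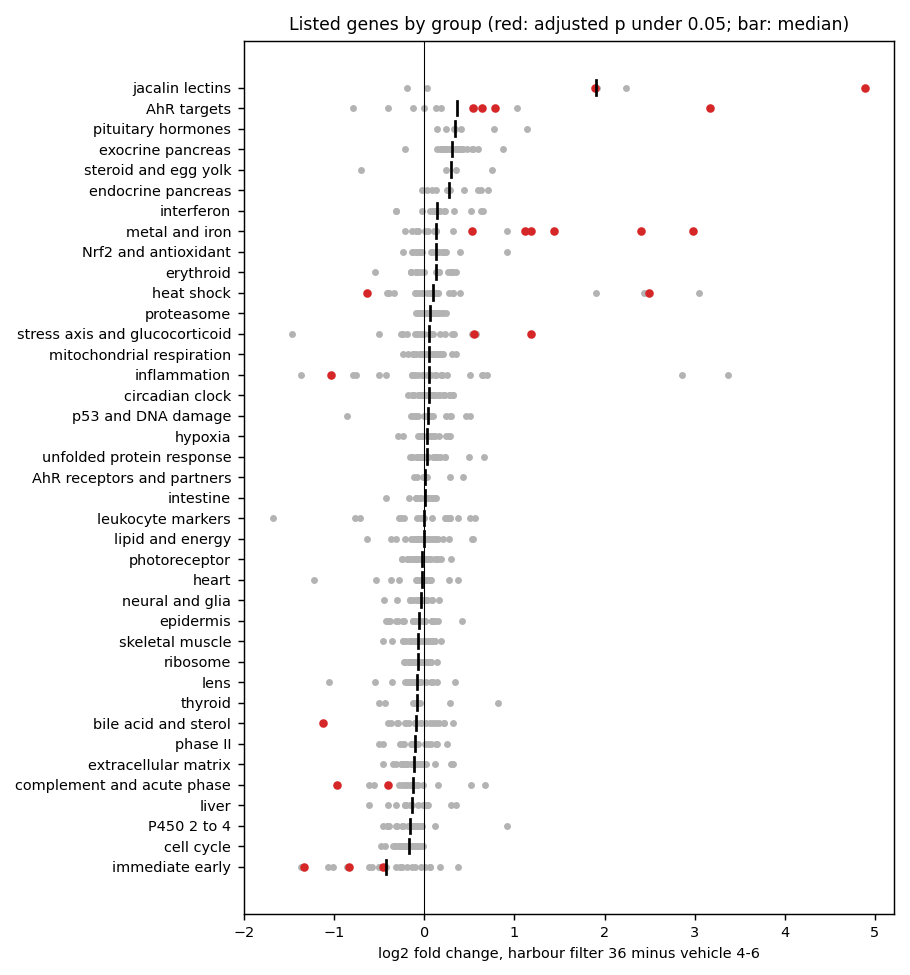
Log2 fold change of filter 36 minus vehicle 4 to 6 on the x axis for the measured members of the 39 gene lists on the y axis, ordered by their median (black bar); red points passed the adjusted threshold. The called genes sit in the jacalin, AhR target, metal and iron, heat shock, stress axis, inflammation, bile acid, complement and immediate early lists. The organ lists hold only grey points, with medians from -0.14 (liver) to 0.31 (exocrine pancreas).

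Of the other filters run in the same round against the same vehicle pools, 3 were compared with filter 36: road filter 28 and harbour filter 38, both of Barcelona in the cold season, and subway filter 80 of Valencia, with 3 pools each. Because they share vehicle 4 to 6 with filter 36, their folds against vehicle are set side by side and the differences are tested directly between exposed pools. Road filter 28 could not be separated from filter 36. No gene passed in edgeR (0%) or DESeq2, with 1516 genes (6.94%) at an unadjusted p under 0.05 in edgeR and 1445 in DESeq2; without road filter 28 replicate 4, 1 gene passed. Side by side, ahrra was 3.17 above vehicle for filter 36 and 3.14 for filter 28, fthl29 2.99 and 2.93, mt2 1.19 and 1.16, and stc1l -1.86 and -1.88. The tested difference was 0.02 ± 0.33 (SE) for ahrra, 0.05 ± 0.13 for fthl29 and -0.32 ± 0.13 for cyp1a, which stood at 61.7 to 69.6 CPM under filter 28. Higher under filter 36 without passing were fbxo32, by 0.54 ± 0.22, and KLHL38, by 0.54 ± 0.19.

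Harbour filter 38 differed from filter 36 at 5229 genes, or 23.9% of those tested, with 2470 higher in filter 36 (11.3%) and 2759 lower (12.6%). AhR targets were lower in filter 36: 9 of 12 passed (6 without exposed replicate 4), among them cyp1a, which lay at 86.6 to 102 CPM under filter 38 (difference -0.88 ± 0.13 SE, edgeR adjusted p = 5.81e-05), and cyp1b1 (-0.76 ± 0.13, 0.000203). The repressor ahrra did not separate the filters, at 0.775 to 0.976 CPM under filter 38 (0.13 ± 0.34, 0.83). Nor did fthl29 (0.22 ± 0.13, 0.25) or mt2 (-0.01 ± 0.15, 0.976), whereas fthl31 was lower in filter 36 (-0.71 ± 0.11, 0.000111). Jacalin lectins were far lower in filter 36, with jac9 at 62.3 to 76.9 CPM under filter 38 (-3.59 ± 0.31, 1.32e-07) and jac1 at 14.6 to 20.3 CPM (-2.96 ± 0.21, 1.56e-08). The hormone gene stc1l, down to 0.106 to 0.312 CPM under filter 38, was higher in filter 36 (3.22 ± 0.40, 7.16e-06), as was apobb.2 (2.33 ± 0.25, 1.73e-06).

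Cell cycle and protein folding genes were among those whose transcripts differed between the harbour filters. Over all genes tested, 11.3% were higher and 12.6% lower in filter 36. In the cell cycle list 34 of 36 genes were higher in filter 36, with medians against vehicle of -0.17 for filter 36 and -0.98 for filter 38; mki67, the proliferation marker, differed by 1.31 (edgeR adjusted p = 2.43e-07). In the unfolded protein response 21 of 27 genes were lower in filter 36, for example hspa5, the main chaperone of the endoplasmic reticulum (-0.65, 0.000496), and in the proteasome list 21 of 30. Complement and acute phase genes were lower in 13 of 20 and inflammation genes in 13 of 26. Without exposed replicate 4 these counts were 31, 21, 18, 13 and 13. The single genes with the smallest p were krt5, a keratin of basal skin cells (1.31 ± 0.09, 4.84e-09), akap12a (1.16) and ZNF106 (0.98) on the higher side, and clu, the secreted chaperone clusterin (-1.91 ± 0.11, 6.84e-10), smox (-1.34), cldni (-1.37), ucp2 (-1.48), jac8 (-4.16) and apoeb (-1.18) on the lower side. None of these 9 passed against vehicle under filter 36.

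Of the 57 genes that rose under filter 36, 33 differed from filter 38: 29 were further from vehicle under filter 38 and 4 less far. Of the 28 that fell, 15 differed, 10 further and 5 less far under filter 38. The genes less far from vehicle under filter 38 include 3 named after their values were seen: tcnbb, a vitamin B12 binding protein, with 81.3 to 89.4 CPM against 50 to 58.6 CPM in vehicle (0.65 above vehicle, against -0.03 under filter 38; difference 0.68, edgeR adjusted p = 0.000147), the AMP deaminase gene ampd3b (0.67 against 0.20; 0.00364) and the protease gene c6ast3 (0.69 against -0.09; 0.000405). On the lower side c3a.2 (-0.97 against 0.36; 6.26e-05), slc41a2a (-1.11 against 0.03; 0.00102), cebpb (-1.03 against -0.15; 0.0011) and klf2b (-0.46 against 0.21; 5.06e-06) fell under filter 36, and the second value in each bracket is the difference from vehicle under filter 38. The fall of cebpb was shared with road filter 28 (-0.88, edgeR adjusted p = 0.04) and subway filter 80 (-0.83, 0.00347). Under these filters c3a.2, slc41a2a and klf2b did not pass against vehicle.

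**Figure D5:**
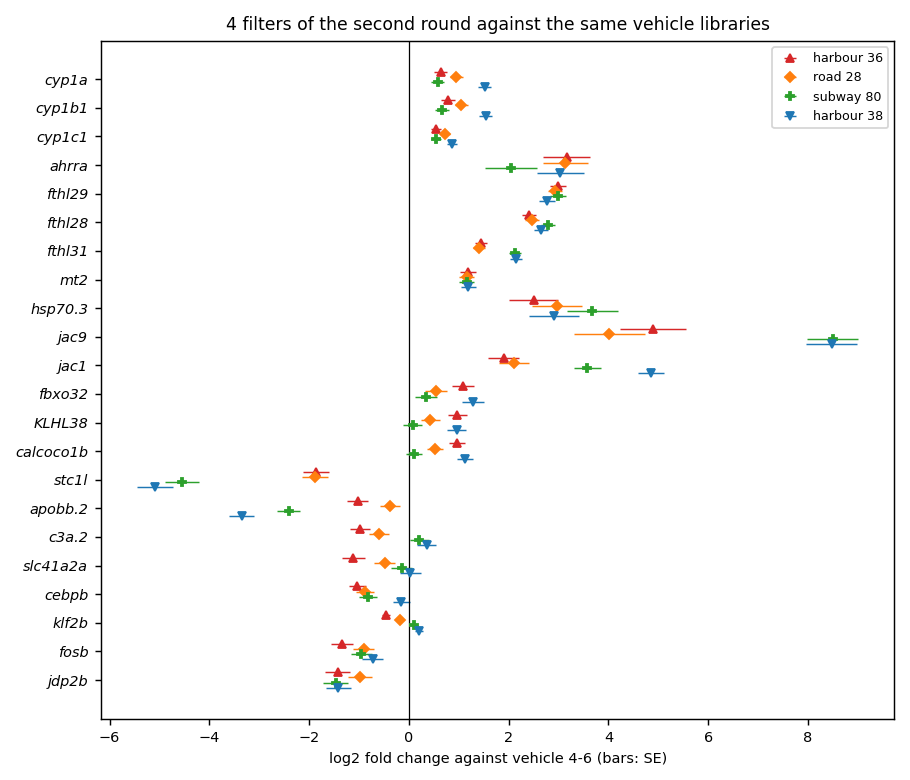
Log2 fold change against vehicle 4 to 6 on the x axis for 22 named genes on the y axis, with 1 marker per second-round filter and SE bars; the 4 filters share the vehicle pools, so their markers are not independent. Filter 36 lies beside road filter 28 for ahrra, fthl29, mt2 and stc1l, below harbour filter 38 and subway filter 80 for jac9 and jac1, and further left than filter 38 for c3a.2, slc41a2a, cebpb and klf2b.

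Subway filter 80, whose 3 libraries share library series 38 with exposed replicate 4 and not with the other 2 exposed pools, differed from filter 36 at 1507 genes (6.9%), 597 higher in filter 36 (2.73%) and 910 lower (4.16%). The P450 genes did not separate them: the difference was 0.06 ± 0.13 (SE) for cyp1a, 0.12 ± 0.13 for cyp1b1 and -0.01 ± 0.10 for cyp1c1. In edgeR or DESeq2 0 of 12 AhR targets passed. At an unadjusted p under 0.05, 1 was higher and 2 lower, against 4599 of all 21856 genes in either direction. The higher one was ahrra (1.13 ± 0.38, edgeR adjusted p = 0.0766). It lay at 0.371 to 0.52 CPM under filter 80 and 0.921 to 1.03 CPM under filter 36, without overlap. Of the risen genes described above, some were higher in filter 36 than in filter 80, KLHL38 by 0.89 ± 0.19 (edgeR adjusted p = 0.0065), calcoco1b by 0.87 ± 0.16 (0.0019) and fbxo32 by 0.75 ± 0.22 (0.0463). The autophagy receptor gene sqstm1 was lower in filter 36 (-0.67, 0.000154). The difference for fbxo32 was lost without any 1 of the 6 pools (0.0556 to 0.181). Harbour filter 38 was not separated from filter 36 at KLHL38 (0.006 ± 0.18, edgeR adjusted p = 0.986), calcoco1b (-0.17 ± 0.15, 0.475) or fbxo32 (-0.20 ± 0.22, 0.553). Under filter 38 these genes were 0.96, 1.13 and 1.29 above vehicle. Over all genes 807, 760 and 968 passed without subway replicate 1, 2 and 3, and 1110 without exposed replicate 4. Lower in filter 36 were jac9 (-3.61 ± 0.31, 1.04e-06), fthl31 (-0.68 ± 0.11, 0.000989), c3a.2 (-1.18 ± 0.20, 0.00111), and 12 of 20 complement and acute phase genes, while 16 of 36 cell cycle genes were higher. The smallest p values on the higher side belonged to krt5 (0.88), ppp1r27b (1.61), BFSP1 (0.90) and gadd45ba (1.01), and on the lower side to clu (-1.66), jac8 (-4.0), loc564660 (-3.81) and irf1b (-1.94).

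The same filter had 1 pool in the first sequencing round, which was set against vehicle 1 to 3 of that round. There 3 of 22256 genes passed (0.0135%), all of them P450 genes that rose. The pool held 240 CPM of cyp1a against 28.3, 34.8 and 36.2 CPM in vehicle and 30.9, 33.6 and 35.9 CPM in mock filter, a log2 fold change of 2.86 ± 0.15 (SE, n = 1 and 3, edgeR adjusted p = 0.000471). For cyp1b1 it held 16.6 CPM against 2.58 to 3.21 CPM in vehicle (2.55 ± 0.20, 0.00623), and for cyp1c1 43.8 CPM against 13.7 to 14.9 CPM (1.61 ± 0.16, 0.0396). The spread of the single pool is assumed to equal that of the control pools. Mock filter minus vehicle gave 0 calls in edgeR, 1275 genes at an unadjusted p under 0.05 (5.73%), and 0.01 ± 0.12 for cyp1a. At some genes vehicle 1, 2 and 3 disagreed widely, as for serpinh1b (6.38, 12.8 and 107 CPM) and klf9 (129, 74.6 and 16.5 CPM). With such a spread differences can be missed, so the 0 calls do not show that mock filter had no effect. Against mock filter in place of vehicle the pool had 2 risen genes (0.00899%), cyp1a and cyp1b1, and 1 fallen (0.00449%), pcdh1g30 (-1.66), named after its value was seen. Without vehicle 1, 2 or 3 the pool gave 7, 1 and 3 calls, and cyp1a passed in each (edgeR adjusted p = 0.000884, 0.00874 and 0.00189), whereas cyp1b1 lost its call without vehicle 2 (0.0702) and cyp1c1 without any 1 of them (0.0909 to 0.259).

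The P450 difference from vehicle was larger in the first-round pool, and this gap between rounds was tested as an interaction over all 33 libraries. The first-round arm is 1 pool whose own spread was not measured, so the SEs and p-values take its spread from the replicated groups and assume that it varied like them. It passed for 13 of 22653 genes (0.0574%), 7 higher (0.0309%) and 6 lower (0.0265%) in the first round. The effect on cyp1a was 2.21 ± 0.22 log2 units larger in the first round (SE, edgeR adjusted p = 3.43e-05), that on cyp1b1 1.76 ± 0.22 larger (0.000482) and that on cyp1c1 1.07 ± 0.18 larger (0.0344, and 0.0912 without vehicle 5). For ahrra no difference between rounds was detected (-0.02 ± 0.49), at 1.22 CPM in the first-round pool and 0.921 to 1.03 CPM in the second round. With few reads for this gene and a wide SE, a gap between rounds could have been missed. The autophagy receptor gene sqstm1 went the other way, lower by 1.09 ± 0.21 (0.048), from -0.35 in the first round to 0.73 in the second. Other genes that differed were tipin (1.31), adrb2b (1.41), tubgcp3 (0.69) and zfta (0.89), higher in the first round, and bnip4 (-1.67) and prss60.1 (-2.73), lower, named after their values were seen. The interaction passed for 433 genes without vehicle 3, for 8 without vehicle 4, for 3 without vehicle 5, for 27 without exposed replicate 3 and for 6 without exposed replicate 4. Round, library series, the control pools and the unexplained title number, 2 for this pool, change together, so they cannot be told apart.

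Of the 57 genes that rose in the second round, 35 were also above vehicle in the first-round pool and 3 passed there, with a median of 0.11 against 0.79 in the second round. Of the 28 fallen genes 18 were below vehicle in the first-round pool, with a median of -0.17 against -0.82. Both sets were chosen by their second-round values, and that choice alone makes the second-round medians more extreme. Over all genes the median in the first-round pool was -0.0129. In the first-round mock filter pools 40 of the 57 were above vehicle, with a median of 0.40 against -0.0016 over all genes, and 14 of the 57 were higher in the pool of filter 36 than in mock filter (median -0.31). Across 21738 genes tested in both rounds, the log2 fold changes of filter 36 correlated at 0.021 (Pearson) and -0.012 (Spearman) and 49.5% had the same sign, a description over genes of 1 pool and 3 pools with separate controls. The cell cycle list was negative in all 36 genes in the second round, where its level in exposed replicate 3 lay within the vehicle range. It was positive in 35 of 36 in the 1 first-round pool (median 0.46). The mock filter median for that list was 0.04.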

How the data were processed

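RNA was sequenced from pools of 10 whole embryos, with a stranded polyA kit per the labels. The deposited gene table holds raw counts of reads per gene, made by the authors, and a second deposited table gives the authors' number of read pairs, percent of reads mapped or duplicated, and insert size in bases. The submitters' processing notes name CASAVA, BWA and the build GRCz11. The counting program, strand setting, annotation release and treatment of reads shared by similar genes were not given in the sources used here. Symbols came from the count table for 17766 of 25432 genes and from a RefSeq gene table for 5860, and 1806 kept their ID.

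Counts were tested in R 4.3.3 with edgeR 4.0.16 (filterByExpr, TMM scaling, quasi-likelihood test, limma 3.58.1), over the 18 second-round libraries with 1 coefficient per group, and p-values were adjusted by Benjamini-Hochberg over all genes tested. SE is the log2 fold change divided by the square root of F. CPM uses the scaled library sizes. DESeq2 1.42.0 was an alternative and matplotlib 3.10.9 drew the figures. Rank or permutation tests of 3 against 3 cannot go below 0.1 and were not used. On simulated data for the comparison with vehicle, the same steps recovered 64.5% of 200 genes changed by 1.5-fold and 95.5% of 200 changed by 2-fold, with 8 and 10 false calls. The changed genes were drawn from those with higher counts. The simulated spread followed the trend with expression and not each gene's own spread, and no library was made to stand apart. The rates therefore do not cover genes with few reads or a larger spread. No pair of libraries within a group agreed within counting noise.

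The members and the 39 gene lists (889 genes, 794 tested) were chosen with earlier results of these data known. Named genes were all AhR genes, up to 12 called genes per direction with the largest change, no provisional name and a mean log2 CPM no lower than 1, up to 4 called members of each list or the 1 with the smallest p, and up to 6 per direction of each difference between filters by p. The text gives part of the genes this rule names, and a result on 1 further gene is not reported here. The test of the difference between rounds was added after the data were seen. Alternatives were RLE scaling, DESeq2, no filter on low counts, fewer or more libraries in the fit, and leaving out each library.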

Additional observations from a re-analysis of the deposited data

Results flagged for a closer look

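Of the 33 genes that were called against vehicle and picked by the naming rule, 14 passed the test of the difference between the harbour filters itself. Further genes passed that were not called against vehicle or not picked by the rule. Values are the log2 value of filter 36 minus filter 38. The AhR genes cyp1a (-0.88), cyp1b1 (-0.756) and cyp1c1 (-0.329) were lower in filter 36, as were the ferritin-like fthl31 (-0.712), rhcgl1 (-0.497) and the lectins jac9 (-3.59) and jac1 (-2.96). The difference of cyp1c1 was lost without exposed replicate 4 (edgeR adjusted p = 0.122) or without filter 38 replicate 4 (0.0728), and that of rhcgl1 without exposed replicate 2 or 3 (0.113 and 0.098) or filter 38 replicate 2 or 4 (0.159 and 0.082). The fallen genes slc41a2a (-1.14), cebpb (-0.882), c3a.2 (-1.33) and klf2b (-0.668) were lower in filter 36. The genes stc1l (3.22), apobb.2 (2.33) and a2ml (0.371) were higher in filter 36.

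Against subway filter 80, 11 of the same 33 genes passed, and so did further genes outside that set. In filter 36 fbxo32 (0.749), KLHL38 (0.893), calcoco1b (0.867), stc1l (2.69) and apobb.2 (1.39) were higher. Lower were fthl31 (-0.677), slc41a2a (-0.969), c3a.2 (-1.18), jac9 (-3.61), jac1 (-1.68) and klf2b (-0.555). The difference of fbxo32 was lost without any 1 pool (edgeR adjusted p = 0.0556 to 0.181), and that of slc41a2a without subway replicate 2 (0.0892). The subway pools all belong to library series 38 and the exposed pools mostly to series 37, and the part of that in these values was not tested.

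Between the rounds, the difference is given as the first-round effect minus the second-round effect on the log2 scale. Of the genes called against vehicle in the second round, 4 passed, and further genes passed that were not called there. The effect of filter 36 was larger in the first round for cyp1a (2.21), cyp1b1 (1.76) and cyp1c1 (1.07). It was lower there for sqstm1 (-1.09). The first-round effect rests on 1 pool.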

How the results depend on the processing

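The comparison with vehicle gave 85 calls, 85 with RLE scaling, 89 without a filter on low counts, 209 with DESeq2 (80 of the 85 among them), 38 with its 6 libraries alone, 13 with all 33 libraries and the round as covariate, and 26 to 107 with 1 library left out. The cause was not tested. Without vehicle 4 the calls were 42 higher and 48 lower, against 57 and 28. Filter 36 against filter 38 gave 3995 to 5279 calls with 1 library left out and 3159 with the libraries of these filters alone. Against road filter 28 it gave 0 or 1 with 1 library left out. Against subway filter 80 it gave 760 to 1743, and 726 with these filters alone. The first-round pool gave 1 to 7 calls, and the rounds difference 3 to 433 and 275 with DESeq2.

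Of 33 named called genes, 5 passed in every alternative that gave an adjusted p (fthl29, fthl28, fthl31, mt2 and ahrra) and 28 lost the call at least once, of 11 alternatives. Sign changed for serpinh1b (0.201) and foxq1a (0.207) with all 33 libraries, for tiparp without exposed replicate 4 (0.0401) or vehicle 5 (0.0532), with a left-out range of -0.0426 to 0.0532, for ahr1b (0.00232, range -0.224 to 0.00232) and arnt2 (0.0333, range -0.0402 to 0.0333) without exposed replicate 3, and for arnt without exposed replicate 2 (-0.0884), exposed replicate 4 (-0.000566) or vehicle 6 (-0.0825; range -0.0884 to 0.122).

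No paired analysis was possible because vehicle 4 to 6 and filter 36 replicates 2 to 4 share 1 number, for the comparison with vehicle. Between filters, a block on the replicate number gave 4269 calls against filter 38, 0 against road filter 28 and 841 against subway filter 80. Against subway filter 80 only replicates 2 and 3 of each filter shared a number and entered that fit. The title numbers can differ within a block: replicate 4 has 10 for filter 36 and 9 for filter 38 and road filter 28. Deviations of same-numbered pools correlated at 0.105, 0.166 and 0.0978 for filter 38, each best with its own number. They correlated at 0.00165, -0.0153 and 0.139 for road filter 28, and at 0.0451 and -0.0287 for subway filter 80. There only replicate 4 of road filter 28 and replicate 2 of subway filter 80 matched best by number. Whether same-numbered pools share more than a number was not tested. At this depth and n, changes of 1.5-fold were often missed on simulated data (64.5% of 200 recovered), among genes with higher counts and no spread of their own.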

Other observations

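Hormone genes of the pituitary and the islets leaned up without passing. All 7 measured pituitary hormone genes had a positive log2 difference (median 0.34); 0 passed in edgeR or DESeq2 and 3 were higher at an unadjusted p under 0.05, against 10.6% of all genes in either direction. The growth hormone gene gh1 lay at 8.6, 10.2 and 8.67 CPM in vehicle and 12.9, 12.4 and 9.43 CPM in the exposed pools, with replicate 4 overlapping vehicle (0.34 ± 0.14 SE, edgeR adjusted p = 0.366). Among 10 islet hormone genes the somatostatin gene sst1.2 had the smallest p, with 2.7 to 3.98 CPM in vehicle and 3.81 to 6.01 CPM in the exposed pools (0.70 ± 0.18, edgeR adjusted p = 0.125). In that list 0 passed in edgeR, 1 in DESeq2 and 1 without exposed replicate 4, and 3 were higher at an unadjusted p under 0.05.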
